A study of Mus musculus with 11 samples.

Results

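Astrocytes sorted from the hippocampus (HC) were compared with astrocytes sorted from the brainstem (BS) over all genes, using 6 of the 11 samples of the series: 3 titled HC and 3 titled BS. The olfactory bulb and cortex samples were left out. All 6 came from adult Aldh1l1-eGFP mice, C57BL/6 by strain and 16 weeks old, in which regulatory sequence of the astrocyte gene Aldh1l1 drives green fluorescent protein, so every sample, in both groups, carries the transgene and the groups differ by the dissected tissue. Cells were sorted on eGFP, and no further marker of the sort is given in the sources used here. The labels do not say whether replicates came from separate animals, so p-values measure the spread between these samples, which may be technical.

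Astrocytes arise from radial glia that already carry a positional code. In the embryo, transcription factors of the forebrain, among them Lhx2 and Emx2, set up the cortex and hippocampus, while Hox genes, which lie in clusters and are switched on in order along the body axis, set up the hindbrain and spinal cord. Mature astrocytes take up glutamate and glycine, buffer potassium, supply serine, and secrete matrix and synapse-forming proteins. The hippocampus is dominated by glutamatergic neurons, whereas in the brainstem glycine acts as a fast inhibitory transmitter beside GABA.

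Each value below is a normalized read count, the reads on a gene divided by a single factor per sample. Between 2830746 and 14151670 reads per sample fell on genes, with 5543804 to 14151670 reads in the HC and 2830746 to 5552215 in the BS. A single read was worth at most 0.913 in the HC and at most 2.10 in the BS, so low values in the BS are the coarser ones. A count of 0 was taken to allow up to 3 reads, a value of at most 2.74 in an HC library and 6.31 in a BS library, and a fold against a group at 0 is given as a bound against this floor of a single library, for counting error only. Differences are given as the mean of log2(value + 1) in the BS minus that in the HC, with the standard error (SE), and a negative difference means higher in the HC. This scale understates the change of genes with low values. A gene was called when limma gave it a Benjamini-Hochberg adjusted p under 0.05 over the 12602 genes tested.

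Of these genes, 305 (2.42%) were called, 175 (1.39%) higher in the HC and 130 (1.03%) higher in the BS, and the median over all genes tested was 0.01. For each of the 305 genes the 3 HC values and the 3 BS values did not overlap, which was true of 18.3% of all genes tested (8.94% higher in the HC and 9.38% in the BS). The median size of the called differences was 2.14, and 99 genes higher in the HC and 77 higher in the BS differed by over 2 on the log2 scale. A further rule, the thresholds of the study's methods (a fold over 1.5, an unadjusted p under 0.01 and 2 replicates of either region with values over 5), passed 713 genes (5.66%), of which 383 (3.04%) were higher in the HC and 330 (2.62%) in the BS. The number called fell from 305 to 109 without HC_2, to 181 without HC_3 and to 137 without BS_3. In 16 alternative fits, which include leaving out each of the 6 samples, 71 of the 305 genes were called every time, 51 higher in the HC and 20 higher in the BS.

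**Figure D1:**
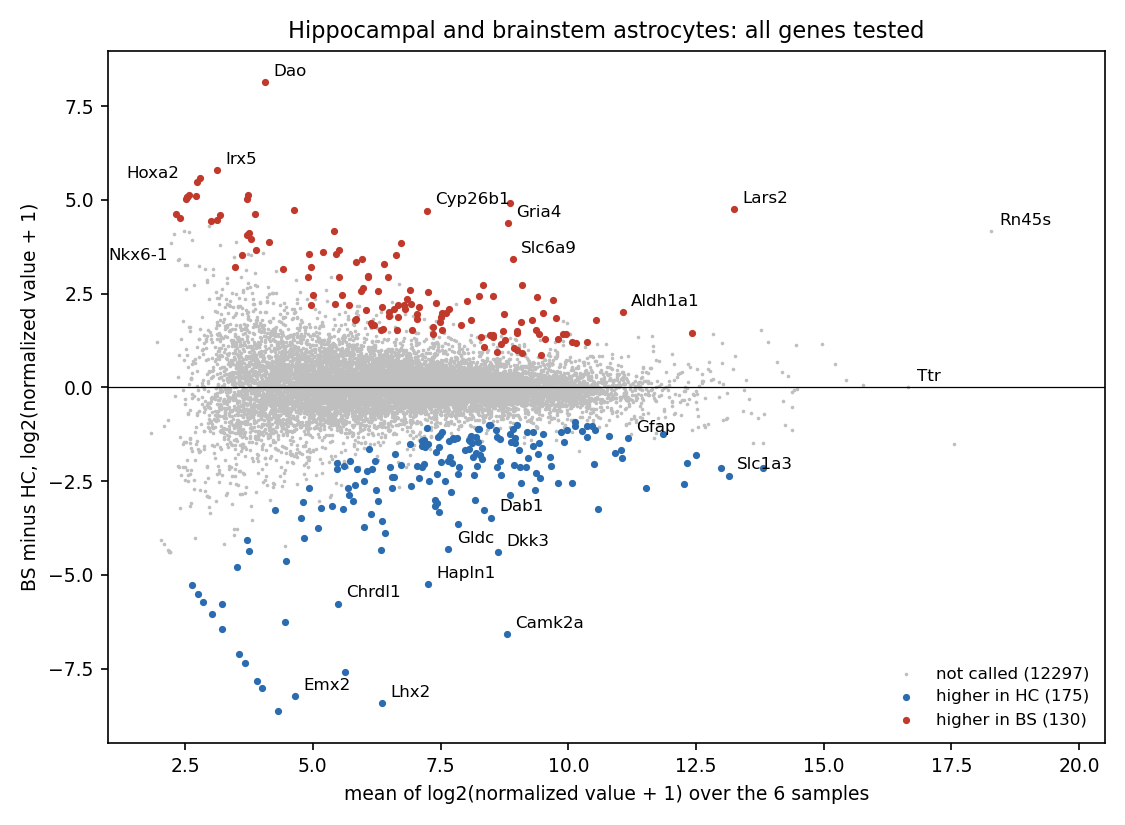
Each point is a gene, with its mean log2(normalized value + 1) over the 6 samples on the x axis and the BS minus HC difference on the y axis. Blue points are the 175 genes called higher in the HC, red points the 130 called higher in the BS, and grey points the 12297 not called, with Lhx2 near the bottom at -8.41 and Dao at the top at 8.14.

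The transcription factors that pattern the forebrain were the group with the most calls in the HC. Of 30 listed factors 21 were tested, and 10 were called, all 10 higher in the HC against 1.39% of all genes, with a median difference over the 21 of -2.88. Called members without a BS read, such as Fezf2, Dmrt3 and Dmrta2, passed the filter on low counts through the HC. They could be called in that direction only, so the split and the median follow in part from the filter. The other 11 lay between -4.17 and 0.95. Fewer cells of a type and less RNA per cell cannot be told apart in bulk samples, here and in the results that follow.

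Lhx2, a LIM-homeodomain factor needed for hippocampal and cortical fate (chromosome 2 from 38339271 to 38369737, RefSeq on GRCm38.p6, the same assembly as mm10), was at 1261, 1528 and 1787 in the HC against 2.10, 8.01 and 2.10 in the BS. Every HC sample was far above every BS sample, the ratio of the means was 374 and the difference was -8.41 (SE 0.44, adjusted p = 2.87e-05).

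Emx2, a homeodomain factor required for growth of the hippocampus (chromosome 19 from 59458690 to 59465357), had 443, 334 and 549.6 in the HC, and a single read in BS_2 was all that the BS held. The ratio of reads scaled to depth was 914 (exact 95% interval 164 to 36109, counting error only), and the fitted difference was -8.23 (SE 0.59, adjusted p = 8.45e-05). The antisense transcript Emx2os, whose RefSeq entry ends short of Emx2 (chromosome 19 from 59425104 to 59458635), was at 151, 111 and 151 in the HC and at 0 in the BS. Whether the counting used strand is not given in the sources used here. Fezf2, a zinc-finger factor of forebrain progenitors, had 212, 219 and 367 in the HC and 0 in each BS sample, at least 42.1-fold higher in the HC than the BS could hold at 3 reads per library. Its fitted difference, which depends on the added 1 where a group is at 0, was -8.01 (SE 0.60, adjusted p = 9.85e-05). Nr2e1, the nuclear receptor Tlx that maintains neural stem cells, had 539.7, 621 and 964 against 5.26, 0 and 6.31 (-7.59, SE 0.69, adjusted p = 3.14e-04). Lhx2, Emx2, Emx2os, Fezf2 and Nr2e1 were called in each of the 16 alternative fits.

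The doublesex-related factors Dmrt3 and Dmrta2, both expressed in the developing medial pallium, had means of 52.3 ± 11.5 (SD, n = 3) and 38.9 ± 14.3 (SD, n = 3) in the HC and no BS read, which sets bounds of at least 8.28-fold and 6.16-fold. Otx1, a homeodomain factor of the anterior brain, had 123, 146 and 156 against 7.36, 42.1 and 18.9 (-2.88, SE 0.55, adjusted p = 0.0222), and Hopx, a homeodomain protein that does not bind DNA and marks outer radial glia and stem cells, had 2086, 3474 and 3481 against 995, 533 and 697 (-2.03, SE 0.29, adjusted p = 0.00451). Dmrt3, Dmrta2, Otx1 and Hopx were named after their values were seen. Without HC_2 the list kept 6 of its 10 calls, with Dmrt3, Dmrta2 and Otx1 lost at adjusted p = 0.0772, 0.13 and 0.132, and Dmrt3, Dmrta2 and Otx1 also missed the threshold without HC_1 (0.0531 to 0.0627), Dmrta2 and Otx1 without HC_3 (0.121 and 0.102), and Otx1 without BS_3 (0.0826). Six3 and Bcl11b, also named after their values were seen, differed by -4.17 and -3.78 and were not called (adjusted p = 0.0748 and 0.0628).

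The Hox genes were found in the BS and not in the HC. Of 39 Hox genes in the files, 16 had at least a read in the BS, 9 of them in all 3 BS samples, and none had a read in any HC sample, although the HC libraries were on the whole the deeper ones. Together they held 200, 76 and 112 reads in BS_1 to BS_3, which correspond to summed normalized values of 210.3, 152 and 236, against 0 in each HC library. The 16 genes were 6 of the Hoxa cluster, 5 of Hoxb, 3 of Hoxc and 2 of Hoxd. The reads were few per gene, so that the filter on low counts kept Hoxa2 and Hoxa5 alone for the test. Both were called higher in the BS, as were 1.03% of all genes. With no Hox read in the HC, both passed the filter through their BS reads and could be called in that direction only. Their calls therefore add little to the read counts above.

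Hoxa2, which has the most anterior expression of the family in the hindbrain (chromosome 6 from 52162417 to 52164831), had 39.9, 44.1 and 46.3 in the BS and 0 in the HC, at least 15.9-fold higher (5.47, SE 0.85, adjusted p = 0.00821). Hoxa5 had 21.03, 16.03 and 39.99 in the BS, at least 9.37-fold higher (4.64, SE 0.99, adjusted p = 0.0364). Both calls were lost without BS_3 (adjusted p = 0.0703 and 0.238), and Hoxa5 was also lost without each of the other 5 samples (0.0624 to 0.128). With no filter on low counts 6 Hox genes were called, and with all 4 regions in the fit also 6. Hoxc4 had 19.97, 16.03 and 6.31 and Hoxb3 47.3, 4.01 and 39.99 in the BS, both at 0 in the HC and neither tested by limma. For each of the pair the exact permutation test gave a two-sided p = 0.1, the smallest that 3 against 3 samples allow. Hotairm1, a non-coding RNA whose RefSeq entry lies beside Hoxa2 without overlapping it (chromosome 6 from 52158524 to 52162020), had 31.5, 46.1 and 27.4 in the BS and 0 in the HC (5.14, SE 0.90, adjusted p = 0.0145), and its call was lost without HC_2, BS_1, BS_2 or BS_3 (adjusted p from 0.0535 to 0.0810).

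Of 45 factors that pattern the hindbrain, the dorsal neural tube or the ventral neural tube, 19 were tested and 6 were called, all 6 higher in the BS against 1.03% of all genes, with a median of 1.67 over the 19. Among the called members, Pax3, without an HC read, and Irx5 and Irx2, with a single HC read each, passed the filter on low counts through the BS. They could be called in that direction only, so the split and the median follow in part from the filter. The Iroquois factors Irx5 and Irx2, homeodomain proteins of the midbrain and hindbrain, were at or near 0 in the HC libraries. Irx5 (chromosome 8 from 92357796 to 92361456) had 69.4, 74.1 and 50.5 in the BS and a single read, in HC_1, among the HC samples, with a read ratio of 358 (exact 95% interval 63.03 to 14233, counting error only) and a difference of 5.79 (SE 0.77, adjusted p = 0.00335). Irx2 had 36.8, 40.1 and 35.8 in the BS against 0, 0 and 0.367 (5.12, SE 0.86, adjusted p = 0.0116). Pax3, a paired-box factor of the dorsal neural tube, had 43.1, 30.1 and 27.4 in the BS and no read in the HC, at least 12.2-fold higher (5.08, SE 0.91, adjusted p = 0.0157).

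Meis1, a cofactor of Hox proteins, was present in both regions, with 14.4, 13.7 and 19.1 in the HC and 102, 152 and 128 in the BS (2.94, SE 0.39, adjusted p = 0.00335). Pbx3, another Hox cofactor, had 52.5, 38.4 and 29.4 against 168, 96.2 and 124, and Lmx1a, a factor of the roof plate and choroid plexus, had 41.2, 21.01 and 28.6 against 128, 102 and 86.3, and these last calls of the list were named after their values were seen (adjusted p = 0.0442 and 0.0413). Meis1 and Irx5 were called in all 16 alternatives, whereas without HC_2 the list held 3 calls (Pax3 0.0567, Lmx1a 0.167 and Pbx3 0.166), and without BS_1 or BS_3 it held 2, with Irx2, Pax3, Lmx1a and Pbx3 at adjusted p from 0.0643 to 0.161. Without BS_2 it held 3 (Irx2 0.0504, Pax3 0.0532 and Lmx1a 0.0731), without HC_3 Lmx1a and Pbx3 were lost (0.114 and 0.144), and without HC_1 Pbx3 was (0.0507). The other 13 genes lay between -1.32 and 3.28. The largest of these was Nkx6-1, a homeodomain factor of the ventral neural tube, with 19.97, 12.02 and 21.05 in the BS against 5.62, 0 and 0 in the HC. Its samples did not overlap, but its difference of 3.28 had SE 1.07, adjusted p = 0.191. Foxb1, a forkhead factor of the hypothalamus and hindbrain outside the list, had 35.7, 96.2 and 29.5 in the BS and 0 in the HC, at least 19.6-fold higher (5.58, SE 0.89, adjusted p = 0.0095), and lost its call without BS_2 (adjusted p = 0.0565).

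**Figure D2:**
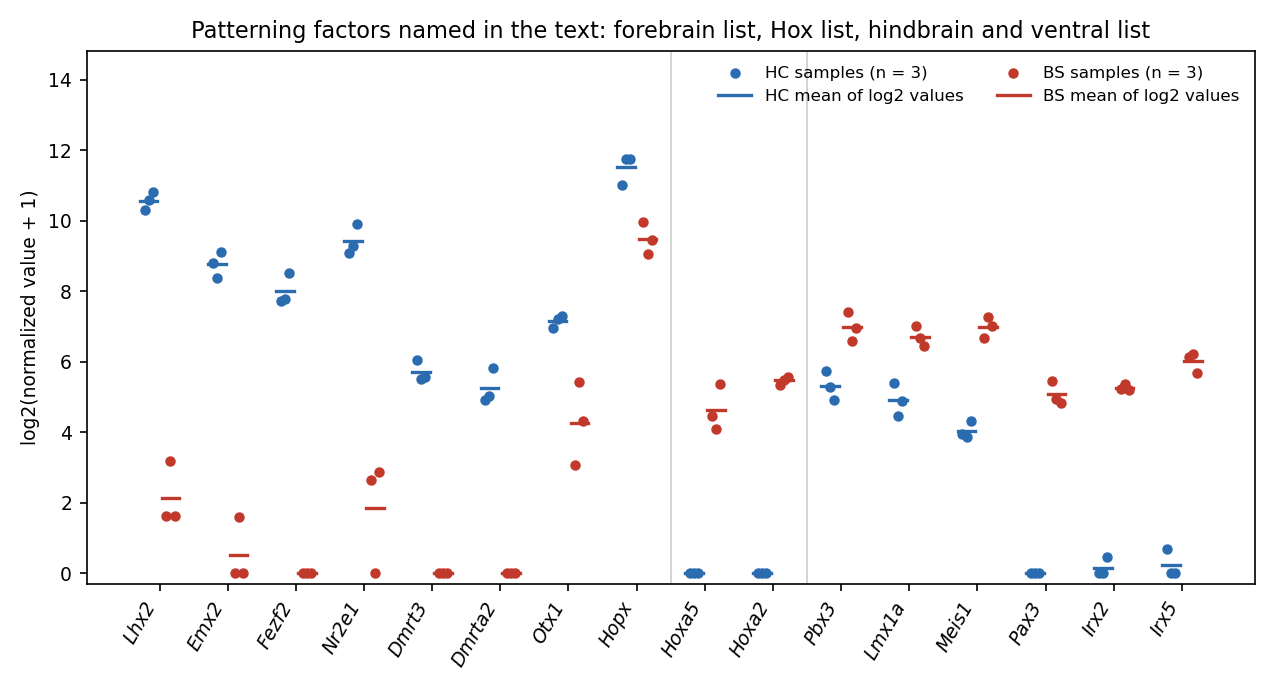
Values of 16 called patterning factors in each sample as log2(normalized value + 1), blue for the HC and red for the BS, with bars at the means of 3 samples. The 8 forebrain factors on the left are higher in every HC sample, and the 2 Hox genes and 6 hindbrain and ventral factors to the right are higher in every BS sample.

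The promoters of patterning factors from each direction are shown because these genes carry the contrast between the forebrain list and the Hox and hindbrain lists. Each runs from 250 bases before to 50 bases after an annotated start, in RefSeq on GRCm38.p6, written 5' to 3' on the gene's strand with CG dinucleotides in capitals. Lhx2 lies at chr2:38339031-38339330 on the plus strand and Emx2 at chr19:59458440-59458739 on the plus strand. Hoxa2 lies at chr6:52164782-52165081 on the minus strand and Irx2 at chr13:72628570-72628869 on the plus strand. The Irx2 window lies inside the listed span of the gene (chromosome 13 from 72624430 to 72634196), at an annotated start downstream of the first base of that span.
Lhx2: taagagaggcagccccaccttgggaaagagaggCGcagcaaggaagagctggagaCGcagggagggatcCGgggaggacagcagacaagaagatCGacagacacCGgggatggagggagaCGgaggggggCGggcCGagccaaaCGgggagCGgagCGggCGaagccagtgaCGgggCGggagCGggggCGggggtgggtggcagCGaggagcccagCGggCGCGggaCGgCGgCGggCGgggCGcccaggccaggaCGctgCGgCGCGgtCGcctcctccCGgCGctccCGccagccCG
Emx2: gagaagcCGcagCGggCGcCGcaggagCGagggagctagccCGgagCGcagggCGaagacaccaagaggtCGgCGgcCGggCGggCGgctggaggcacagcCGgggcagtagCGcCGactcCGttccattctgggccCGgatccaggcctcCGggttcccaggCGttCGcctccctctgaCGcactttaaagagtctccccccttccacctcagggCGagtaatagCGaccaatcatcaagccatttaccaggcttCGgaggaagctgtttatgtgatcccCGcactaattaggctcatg
Hoxa2: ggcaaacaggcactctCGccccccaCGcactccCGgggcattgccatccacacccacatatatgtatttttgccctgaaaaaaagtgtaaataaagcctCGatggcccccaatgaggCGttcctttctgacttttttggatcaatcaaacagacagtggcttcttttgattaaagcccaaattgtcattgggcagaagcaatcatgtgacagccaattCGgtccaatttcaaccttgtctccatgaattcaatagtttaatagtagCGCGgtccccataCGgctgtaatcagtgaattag
Irx2: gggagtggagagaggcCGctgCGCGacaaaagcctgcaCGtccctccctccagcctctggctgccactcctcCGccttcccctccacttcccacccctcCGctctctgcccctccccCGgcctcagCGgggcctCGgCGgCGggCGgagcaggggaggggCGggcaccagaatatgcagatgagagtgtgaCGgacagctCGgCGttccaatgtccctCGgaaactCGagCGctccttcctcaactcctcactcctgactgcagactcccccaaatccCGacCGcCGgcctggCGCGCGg
The windows of Lhx2, Emx2 and Irx2 held 34, 26 and 25 CG dinucleotides and that of Hoxa2 held 9. Over the 9605 tested genes with a promoter in the table the median was 21, with quartiles of 13 and 29. It was 16.5 for the 128 of 175 genes called higher in the HC that had a sequence and 14 for the 93 of 130 called higher in the BS. The letters TAATTA, the core bound by many homeodomain proteins and its own reverse complement, stood in the Emx2 window and in none of the other 3. They stood in 2.37% of all tested promoters, in 5.47% of those called higher in the HC (7 genes) and in 1.08% of those called higher in the BS (1 gene), which are descriptions of these windows with no test.

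Genes of glutamate signalling differed in both directions. Of 21 glutamate receptor genes tested, 4 were called higher in the HC and 2 higher in the BS, against 1.39% and 1.03% of all genes, with a median of -0.21. The AMPA receptor subunit Gria4 (chromosome 9 from 4417893 to 4796234) was the largest, with 74.96, 133 and 92.5 in the HC and 1202, 3093 and 2326 in the BS, a ratio of means of 22.01 (4.38, SE 0.34, adjusted p = 1.13e-04). A second AMPA subunit, Gria1, had 364, 438 and 314 against 1005, 3259 and 1945 and was also higher in the BS (2.33, SE 0.36, adjusted p = 0.0083). The subunit that makes AMPA receptors impermeable to calcium, Gria2, went the other way, with 1104, 1401 and 975 in the HC and 329, 539 and 396 in the BS (-1.47, SE 0.24, adjusted p = 0.00988).

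Grm3, a metabotropic receptor of astrocytes that lowers cyclic AMP, had 1933, 3017 and 3019.6 in the HC and 216, 693 and 587 in the BS (-2.55, SE 0.39, adjusted p = 0.00821). The NMDA receptor subunits Grin2b and Grin2c were the remaining calls, with 171, 188 and 92.5 against 53.6, 18.03 and 27.4 and 497, 516 and 719 against 223, 258 and 295 (differences of -2.23 and -1.14, adjusted p = 0.0329 and 0.0242). Gria2 and Grin2c were named after their values were seen. Gria4 was called in all 16 alternatives, whereas without HC_2 none of the 4 calls in the HC remained (adjusted p from 0.0583 to 0.197), without BS_3 only Grm3 did, and without BS_3 Gria1 was lost as well (adjusted p = 0.0522). Grin2b was also lost without HC_1 or BS_2 (adjusted p = 0.114 and 0.0532) and Grin2c without HC_3 or BS_1 (0.118 and 0.0688). The summed markers of hippocampal neurons, mostly Camk2a, were higher in the HC libraries, as given with the other cell types. The part of such neurons in the receptor differences was not tested.

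Slc1a3, the glutamate transporter GLAST, had 14218, 23260.2 and 25407 in the HC and 1953, 6315 and 5142 in the BS (-2.35, SE 0.44, adjusted p = 0.0203), in a list of 14 tested genes for glutamate uptake and the glutamine cycle. Slc7a11, the cystine-glutamate exchanger, was also higher in the HC, with 1587, 2315 and 2438 against 635, 1290.2 and 714 (-1.31, SE 0.29, adjusted p = 0.0444), and Slc38a1, a glutamine transporter, was higher in the BS, with 374, 333 and 215 against 834, 777 and 970.3 (1.51, SE 0.24, adjusted p = 0.00934). These were 21.4% of the list, against 2.42% of all genes. The other 11 genes lay between -1.51 and 0.71, and the median of the list was -0.24. The calls of this list depended on single samples: without HC_2, HC_3 or BS_3 neither HC call remained (Slc1a3 at adjusted p = 0.12, 0.0925 and 0.079), without BS_1 Slc7a11 was lost (0.111), and without BS_3 Slc38a1 was lost (0.0616).

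Genes that make, move and degrade glycine and serine differed in both directions. Dao, the peroxisomal oxidase that degrades D-serine (chromosome 5 from 113999635 to 114025675), had 222, 242 and 413 in the BS and no read in any HC sample. The BS mean of 292 ± 105 (SD, n = 3) was at least 107-fold higher, and this was the largest fitted difference toward the BS (8.14, SE 0.59, adjusted p = 8.45e-05). Slc6a9, the glycine transporter GlyT1 (chromosome 4 from 117835258 to 117869305), had 111, 163 and 172 in the HC and 1213, 2182 and 1484 in the BS, a ratio of means of 10.9 (3.42, SE 0.27, adjusted p = 1.13e-04). Gldc, the glycine decarboxylase of the glycine cleavage system (chromosome 19 from 30098441 to 30175441), went the other way, with 680.2, 975 and 1089 in the HC against 36.8, 62.1 and 37.9 in the BS and a ratio of means of 20.1 (-4.31, SE 0.29, adjusted p = 8.45e-05).

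Dao, Slc6a9 and Gldc were called in all 16 alternative fits. Glra1, a glycine receptor subunit, had 33.6, 26.04 and 35.8 in the BS and 0 in the HC, at least 11.6-fold higher (5.02, SE 0.91, adjusted p = 0.0169). The serine synthesis enzymes Phgdh and Psph, named after their values were seen, were higher in the HC, with 653, 965 and 909.5 against 182, 365 and 389 and 254, 267 and 311 against 80.95, 150.3 and 124 (differences of -1.49 and -1.26, adjusted p = 0.0298 and 0.0442). Thus 3 of the 35 tested genes for GABA and glycine were called in each direction, against 1.39% of all genes in the HC and 1.03% in the BS. The other 29 lay between -2.34 and 3.84, the last being Slc6a5, the glycine transporter of neurons, with 17.9, 18.03 and 14.7 in the BS against 0, 0.913 and 0 (adjusted p = 0.0888). Of the HC calls Gldc alone remained without HC_2, HC_3 or BS_3 (Phgdh 0.0597 to 0.170, Psph 0.126 to 0.178), Psph was also lost without HC_1 or BS_1 (0.0932 and 0.0976), and Glra1 was lost without HC_2, BS_1, BS_2 or BS_3 (adjusted p from 0.0526 to 0.119). The sum of the general neuron markers, which include Slc6a5 itself, was higher in the BS libraries, though single members such as Slc17a7 were higher in the HC. The part of neurons in the Glra1 and Slc6a5 values was not tested.

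**Figure D3:**
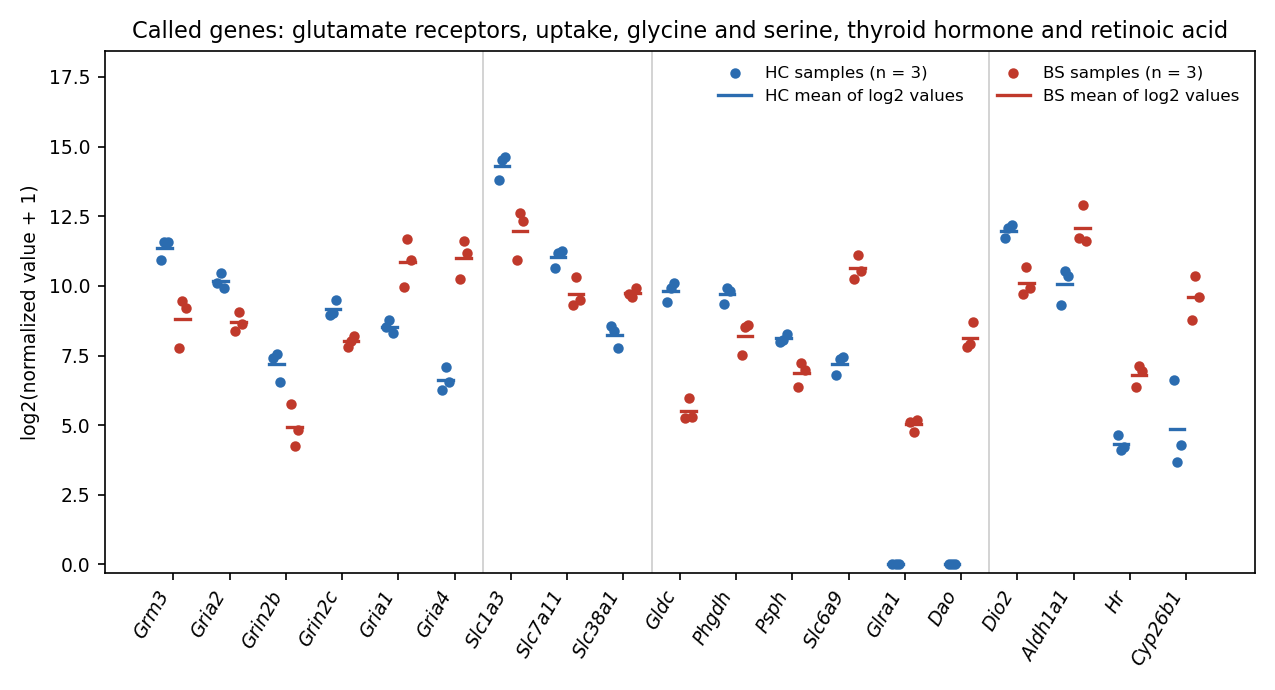
Values in each sample, as log2(normalized value + 1), of the called genes for glutamate receptors, glutamate uptake, glycine and serine, and thyroid hormone and retinoic acid, blue for the HC and red for the BS, with bars at the means of 3 samples. Gldc lies lower in the BS, with a difference of -4.31, while Slc6a9 and Gria4 lie higher there, by 3.42 and 4.38, and Glra1 and Dao stand at 0 in every HC sample.

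Hormone and vitamin handling differed at 4 of 21 tested genes (19.0%, against 2.42% of all genes), with a median of 0.04. Cyp26b1, which degrades retinoic acid, had 97.4, 11.9 and 18.7 in the HC and 437, 1316 and 783 in the BS (4.72, SE 0.67, adjusted p = 0.00479), with HC_1 above the other HC samples and below every BS sample. Aldh1a1, which makes retinoic acid from retinal, was higher in the BS as well, with 629, 1493 and 1297 against 3346, 7609 and 3155 (2.01, SE 0.40, adjusted p = 0.0246). Hr, a corepressor that thyroid hormone induces, had 24.4, 16.4 and 17.6 against 82.00, 138 and 122 (2.48, SE 0.40, adjusted p = 0.0104). Dio2, the deiodinase with which astrocytes turn thyroxine into active hormone, was higher in the HC, with 3344, 4306 and 4623 against 844, 1631 and 972 (-1.88, SE 0.27, adjusted p = 0.00554). Cyp26b1 and Dio2 were called whichever sample was left out, whereas Hr was lost without HC_2 or BS_3 (adjusted p = 0.0535 and 0.069) and Aldh1a1 without any of the HC samples or BS_3 (0.0626 to 0.0667), so that without HC_2 or BS_3 the BS calls went from 3 to 1.

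Among the morphogen pathways, Wnt signalling had the most calls, 2 higher in the HC and 4 higher in the BS of 31 tested, with a median of 0.15. Over all genes the shares were 1.39% and 1.03%. Dkk3, a secreted protein of the Dickkopf family, had 1372, 2020.4 and 2132 in the HC and 104, 108 and 54.7 in the BS, a ratio of means of 20.7 (-4.39, SE 0.30, adjusted p = 8.45e-05), and was called in all 16 alternatives. The Frizzled receptor Fzd10 had 25.2, 28.05 and 48.4 in the BS and 0 in the HC, at least 12.4-fold higher (5.07, SE 0.92, adjusted p = 0.0169). Lgr5, a receptor for R-spondins, had 32.6, 26.04 and 16.8 in the BS and a single read in the HC (4.51, SE 0.95, adjusted p = 0.0352), a read ratio of 146 (exact 95% interval 25.1 to 5893, counting error only), and the secreted Wnt antagonist Sfrp5 had 12.5, 4.57 and 14.3 against 93.6, 274 and 79.98 (3.61, SE 0.61, adjusted p = 0.0114).

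The related R-spondin receptors Lgr4 and Lgr6, named after their values were seen, went in opposite directions, Lgr4 with 866, 1395 and 1606 against 334, 439 and 330.4 (-1.77, SE 0.26, adjusted p = 0.00554) and Lgr6 with 49.97, 94.1 and 35.6 against 178, 377 and 272 (2.23, SE 0.40, adjusted p = 0.0169). Of the 4 Wnt calls in the BS, 1 remained without HC_2 or BS_3 and 2 without HC_3, BS_1 or BS_2, and Lgr5 was also lost without HC_1 (adjusted p = 0.0624). Sonic hedgehog signalling had 1 call in 10, Gli3, a repressor of the pathway, with 776, 999 and 1127 in the HC against 299.6, 447 and 537 (-1.20, SE 0.25, adjusted p = 0.0352), which was lost without HC_2, HC_3, BS_1 or BS_3 (adjusted p = 0.176, 0.154, 0.0781 and 0.0603). Fgf13, an intracellular FGF that binds sodium channels, was the call among 21 FGF genes, with 220.5, 255 and 192 against 31.5, 18.03 and 31.6 (-3.03, SE 0.35, adjusted p = 0.00126). In the hedgehog and FGF lists a single gene each was called, 10% and 4.76% of those tested, against 2.42% of all genes.

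In the BMP and TGF-beta list of 35 tested genes, 2 (5.71%, against 2.42% of all genes) were called, both higher in the HC and both in all 16 alternatives. Chrdl1, a secreted BMP antagonist that astrocytes release to mature synapses (chromosome X from 143285674 to 143394263), had 262, 406 and 346 in the HC and 5.26, 4.01 and 6.31 in the BS, a ratio of means of 65.1 (-5.77, SE 0.40, adjusted p = 8.45e-05). Id4, an inhibitor of basic helix-loop-helix factors and a BMP target, had 587, 949.9 and 911 against 178, 240.4 and 196 (-1.97, SE 0.24, adjusted p = 0.00203). The other 33 lay between -1.23 and 1.29.

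The list of matrix and synapse-forming secreted factors, which also holds the receptor Mertk, had 6 calls in the HC and 1 in the BS of 27 tested. Over all genes the shares were 1.39% and 1.03%. The median of the list, 0.18, nevertheless lay toward the BS. The link protein Hapln1, which ties hyaluronan to proteoglycans in perineuronal nets, had 729, 1000.1 and 1124 in the HC and 41.00, 30.1 and 10.5 in the BS, a ratio of means of 34.97 (-5.25, SE 0.44, adjusted p = 1.70e-04). Thbs4, a thrombospondin, had 185, 299.6 and 127 against 4.21, 0 and 2.10 (-6.25, SE 0.70, adjusted p = 0.00124). Its relative Thbs2 was the call in the BS, with 29.98, 29.2 and 20.2 against 249, 351 and 208 (3.29, SE 0.34, adjusted p = 7.01e-04).

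Tnc, the matrix protein tenascin C, had 103, 151 and 125 in the HC and 3.15, 6.01 and 27.4 in the BS (-3.74, SE 0.67, adjusted p = 0.016). Chrdl1, given above, belonged to this list too, and the last calls of the list, named like Thbs2 after their values were seen, were Mertk, a receptor for phagocytosis, with 1474, 1282 and 1618 against 219.7, 351 and 347 (-2.28, SE 0.23, adjusted p = 6.89e-04), and Gpc6, a glypican that recruits AMPA receptors, with 622, 733 and 1008 against 187, 363 and 333 (-1.45, SE 0.29, adjusted p = 0.0266). Hapln1, Thbs4, Thbs2, Chrdl1 and Mertk were called in all 16 alternatives, while Tnc and Gpc6 were lost without HC_2 or HC_3 (adjusted p from 0.0757 to 0.123) and Gpc6 also without BS_3 (0.0781). Without BS_1 a second gene of the list was called higher in the BS.

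Of 58 axon guidance genes, 3 were called higher in the HC and 1 in the BS, against 1.39% and 1.03% of all genes, so that the share in the BS lay near that of all genes, and the median was -0.27. Ntn1, the midline attractant netrin 1, had 111, 258 and 149 in the BS against 27.5, 16.4 and 3.30 in the HC (3.67, SE 0.67, adjusted p = 0.0172), and Dcc, its receptor, was the reverse, with 13.7, 24.04 and 54.7 against 134, 116 and 121 (-2.19, SE 0.48, adjusted p = 0.0442). The Eph receptors Epha5 and Ephb1 were higher in the HC, with 245, 311 and 328 against 33.6, 114 and 75.8 and 241, 333 and 311 against 94.6, 50.1 and 73.7 (differences of -2.12 and -2.04, adjusted p = 0.0213 and 0.00612). These calls were among the less stable: without HC_2 none of the 4 remained (adjusted p from 0.0558 to 0.180), without HC_3 Dcc and Epha5 were lost (0.146 and 0.0985) and without BS_3 Ntn1 and Epha5 (0.081 and 0.075). Dcc also missed the threshold without HC_1, BS_1 or BS_2 (0.0688 to 0.128) and Ntn1 without BS_2 (0.0515).

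Kcnk2, the potassium leak channel TREK-1, was the call among 28 tested channels for potassium, water and gap junctions, with 345, 607 and 607 in the HC and 37.8, 60.1 and 86.3 in the BS (-3.09, SE 0.35, adjusted p = 0.00124), and it was called in all 16 alternatives. The other 27 lay between -0.87 and 1.89, the median of the list was -0.10, and the 3.57% called lay near the 2.42% of all genes. Of the 28, however, 10 had an unadjusted p under 0.05 in limma, and DESeq2 called 4 and edgeR 1. Samples did not overlap at 7 members higher in the BS and 1 higher in the HC, against 9.38% and 8.94% of all genes. Of 26 reactive astrocyte genes 3 were called, all 3 higher in the HC against 1.39% of all genes, while the median of the list was 0.25. Gfap, the intermediate filament that rises in reactive astrocytes, had 3672, 3976 and 3369.6 against 1159.6, 1779 and 1427 (-1.35, SE 0.22, adjusted p = 0.0105). The complement component C4b had 920.1, 597 and 419 against 107, 248 and 158 (-1.92, SE 0.35, adjusted p = 0.0182), and the oncostatin M receptor Osmr had 395, 289.5 and 248 against 114, 90.2 and 98.9 (-1.59, SE 0.26, adjusted p = 0.0103). None of the 3 was called without HC_2 (adjusted p = 0.0724, 0.103 and 0.0587) or without BS_3 (0.0714, 0.0854 and 0.0519), and C4b was also lost without HC_1 (0.0582). In the cholesterol synthesis list of 22 genes limma called 0, with 2 at an unadjusted p under 0.05, DESeq2 0 and edgeR 0, and the members lay between -0.46 and 1.57. In the list of 28 immediate early and dissociation response genes it called 0 as well, with 2 at an unadjusted p under 0.05, DESeq2 0 and edgeR 0. Its members lay between -1.68 and 1.43, with a median of 0.41. The sums of this list were 10517, 3285 and 1846 in the HC and 9568, 2112 and 5712 in the BS. Samples of the same region thus differed widely, and the absence of calls does not show equal levels.

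**Figure D4:**
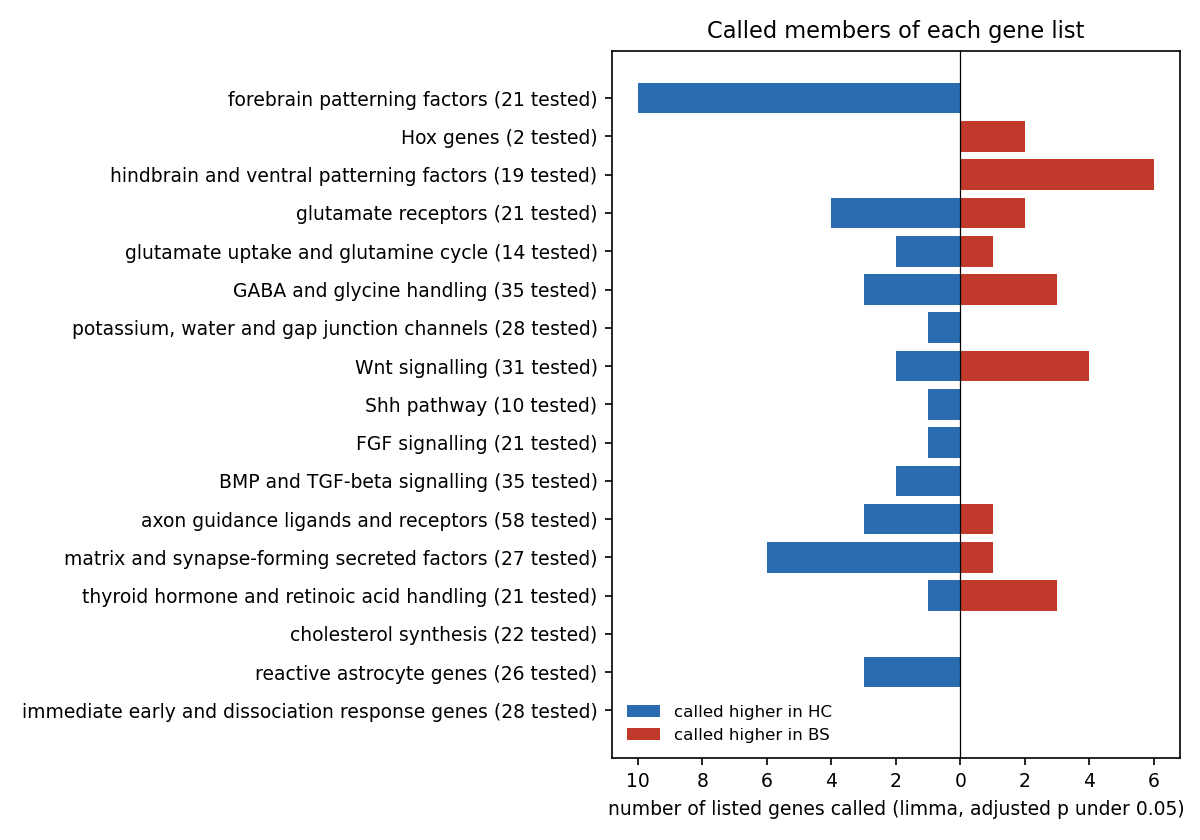
Number of genes called in each gene list, with those higher in the HC as blue bars to the left, those higher in the BS as red bars to the right, and the number tested in brackets. The forebrain factors reach 10 to the left with 0 to the right, the hindbrain and ventral factors reach 6 to the right with 0 to the left, and Wnt signalling has 2 calls to the left and 4 to the right.

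The called genes with the highest normalized values, which also depend on transcript length, were named as well. Gpm6a, a neural membrane glycoprotein, had 12126, 18317 and 22658 against 2692, 5177 and 4033 (-2.16, SE 0.34, adjusted p = 0.00932), and Cpe, the carboxypeptidase that processes prohormones, had 21962, 34032 and 36483 against 4061, 12483 and 6325 (-2.14, SE 0.44, adjusted p = 0.0315). Tspan7, a tetraspanin, Fam107a, an actin-binding protein, and Gnao1, a G protein alpha subunit, had differences of -2.58, -2.02 and -2.68 and were called in all 16 alternatives. Prex2, an exchange factor for Rac, and Tcf4, a basic helix-loop-helix factor, differed by -1.80 and -1.25 (adjusted p = 0.0157 and 0.0452). Without HC_2 or BS_3 Gpm6a, Cpe, Prex2 and Tcf4 were not called (adjusted p from 0.0587 to 0.217), and Cpe, Prex2 and Tcf4 were not called without HC_3 (0.0777 to 0.176), nor Cpe and Tcf4 without BS_1 (0.0744 and 0.106).

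Toward the BS, the most abundant protein-coding calls included Trpm3, a cation channel, with 3268, 2863 and 3892 in the HC and 9849, 10005 and 7518 in the BS (1.45, SE 0.25, adjusted p = 0.013). Sdc3, a heparan sulfate proteoglycan, had 686, 902 and 841 against 1851, 4516 and 2627 (1.80, SE 0.30, adjusted p = 0.0116), Hif1a, the oxygen-sensing factor, 958, 696 and 980.4 against 1726, 2789 and 1705 (1.22, SE 0.25, adjusted p = 0.0306), and Fry, a large cytoskeletal protein, 971, 739.8 and 599 against 1336, 2099.5 and 1791 (1.18, SE 0.25, adjusted p = 0.0329). All 4 missed the threshold without HC_2 and without BS_3 (adjusted p from 0.0552 to 0.178), and Hif1a and Fry also without HC_3 (0.0822 and 0.150), Hif1a without HC_1 (0.0615) and Fry without BS_2 (0.0637). Klk6, a protease of oligodendrocytes, had 60.98, 82.1 and 92.6 in the BS and 0, 10.05 and 0 in the HC (5.14, SE 0.96, adjusted p = 0.0196), and was lost without HC_3 or any of the BS samples (adjusted p from 0.0532 to 0.118). Gpr179, an orphan receptor, had 37.8, 136 and 77.9 against 1.25, 4.57 and 0 (5.01, SE 0.84, adjusted p = 0.0114), and was lost without BS_2 or BS_3 (0.0509 and 0.0781). The sum of the oligodendrocyte markers, mostly Mbp, stood higher in the BS libraries, and the part of oligodendrocytes in the Klk6 value was not tested.

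Reads on ribosomal RNA also differed between the HC and BS libraries, all of which were depleted of it. Rn45s, the ribosomal RNA precursor, took 0.966% to 2.36% of the reads on genes in the HC and 18.0% to 25.6% in the BS, without overlap. The cortex libraries CX_1 and CX_2 stood near the BS, at 20.7% and 19.0%, and the olfactory bulb near the HC, at 2.14% to 2.93%. Whether tissue or library preparation set this share was not tested. The trended limma fit did not call Rn45s (4.16, SE 1.17, adjusted p = 0.116), although it passed the thresholds of the study's methods, and the call depended on the fit. It was called with edgeR (adjusted p = 0.0213), DESeq2 (6.83e-39), no trend (0.00362), all 4 regions in the fit (0.00294) and the replicate block (0.00957) and without BS_2 (0.0362), and not in the other 10 alternatives, whose adjusted p reached 0.595. Lars2, a mitochondrial leucyl-tRNA synthetase, moved with it, at 2719, 1138 and 2143 in the HC and 54301, 41073 and 57422 in the BS (4.75, SE 0.36, adjusted p = 1.08e-04), as did the microRNA genes Mir6236 at 146, 46.6 and 82.9 against 3153, 2359.96 and 2209.99 (4.92, SE 0.36, adjusted p = 8.45e-05) and, in low counts, Mir6240 (4.61, SE 0.79, adjusted p = 0.0127). Whether the reads on Lars2, Mir6236 and Mir6240 came from ribosomal RNA was not tested. Mir6240 was not called without BS_1 or BS_3 (adjusted p = 0.0721 and 0.105).

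Astrocyte markers and further genes chosen to be named whatever their values were mostly not called. Aldh1l1, the gene behind the sort, had 542, 833 and 916 in the HC and 623, 1256 and 657 in the BS (0.10, SE 0.30, adjusted p = 0.933), and Sox9, an astrocyte transcription factor, had 1394, 2293 and 2441 against 1311, 1823 and 1429 (-0.40, SE 0.26, adjusted p = 0.587). The nuclear factor I genes Nfia, Nfib and Nfix, which drive astrocyte formation, differed by -0.44, -0.44 and -0.00, with SEs of 0.30, 0.24 and 0.22 and adjusted p-values of 0.615, 0.488 and 0.999. Nkx2-2, Bcl6 and the progesterone receptor Pgr had differences of 1.29, -1.02 and -0.63 (adjusted p = 0.305, 0.18 and 0.72). Stat4 had 8.75, 1.83 and 0 in the HC and no read in the BS, too few to test (exact permutation test, two-sided p = 0.4, with 0.1 the smallest possible).

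The 12 marker lists were summed in each sample to check the sort. The 14 astrocyte markers summed to 335644, 552808 and 562817 in the HC and to 156666, 413194 and 252293 in the BS, with overlapping samples. Slc1a3 and Gfap were called, both higher in the HC, while the median difference over the 14 was 0.0015. No defining marker was at 0. The 24 choroid plexus markers summed to between 110717 and 229910 in the HC and between 81012 and 384892 in the BS. They were high in both regions with overlapping samples, and Ttr, their defining gene, did not separate them (132046, 65549 and 124536 against 221911, 46376 and 108256, difference 0.02, SE 0.81, adjusted p = 0.997), while Lmx1a was the 1 of 24 called (4.17%, near the 2.42% of all genes). Kl, the second defining gene, was likewise not called (-0.22, adjusted p = 0.912).

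Neuronal lists moved with the regions in both directions. The 15 markers of hippocampal neurons and neurogenesis summed to between 3435 and 6375 in the HC and between 560.3 and 913 in the BS, with Camk2a, a kinase of excitatory synapses, at 5656, 5192 and 2834 against 55.7, 14.02 and 109 (-6.58, SE 0.59, adjusted p = 3.05e-04) and Neurod6 at 63.1, 75.8 and 29.7 against 5.26, 0 and 4.21 (-4.06, SE 0.86, adjusted p = 0.0352), and 2 of 10 tested were called. Camk2a was called in all 16 alternatives and Neurod6 was lost without BS_3 or any HC sample (adjusted p from 0.0736 to 0.243). Prox1, the granule cell factor that defines this list, was not among them (188, 204 and 141 against 94.6, 176 and 339). Camk2a alone made up most of the list's HC sums, which were 6375, 6026 and 3435 in HC_1 to HC_3, and little of the BS sums. The higher HC sums thus rest mainly on Camk2a, and the median difference over the 10 tested was -1.06. Ddn, dendrin, a postsynaptic protein outside the list, had 307, 285 and 129.5 in the HC and 0 in the BS, at least 38.1-fold higher (-7.82, SE 0.64, adjusted p = 1.68e-04). The general neuron list of 19 summed to between 2148 and 4011 in the HC and between 4526 and 5773 in the BS, without overlap. Its calls were the vesicular transporter Slc17a7 in the HC (-3.24) and the neurofilaments Nefh, Nefm and Nefl, with Stmn2 and Snhg11, in the BS (2.94, 3.56, 2.09, 2.14 and 1.97), which were named after their values were seen. Without BS_3 Nefh alone of the BS calls remained (the others at adjusted p from 0.0599 to 0.158), without HC_2 Nefm, Stmn2 and Snhg11 were lost (0.0622, 0.144 and 0.132), and without HC_3, BS_1 or BS_2 Stmn2 and Snhg11 (0.0509 to 0.111). Snap25 and Syt1, its defining genes, differed by 1.16 and -1.33 and were not called (adjusted p = 0.0535 and 0.0881).

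The 16 oligodendrocyte markers summed to between 19759 and 42771 in the HC and between 55632 and 94958 in the BS, again without overlap, although 0 of the 15 tested were called by limma, with 6 at an unadjusted p under 0.05, DESeq2 1 and edgeR 0. Mbp, the myelin basic protein gene, had 29074, 25321 and 13413 against 37477, 45114 and 65569 (1.16, SE 0.48, adjusted p = 0.32), and Mog differed by 0.87. The sums were mostly Mbp, with means of 22603 of 35090 in the HC and 49387 of 72275 in the BS. Of the 15 tested, 4 had no overlap between the regions, all 4 higher in the BS against 9.38% of all genes, and the median difference was 0.88. The oligodendrocyte precursor list, with Pdgfra and Cspg4 at -0.05 and 0.66, summed to between 1004 and 1236 in the HC and between 1365 and 2747 in the BS. The cerebellar and Bergmann glia list summed to between 1118 and 1501 in the HC and between 3439 and 4119 in the BS, with Gdf10 and A2m at -1.65 and 0.91, and 0 of 5 tested were called by limma (3 at an unadjusted p under 0.05, DESeq2 2, edgeR 0). Its granule cell genes Cbln3 and Gabra6, named after their values were seen, were highest in BS_3, at 194 and 61.0 against 4.21 and 16.03 and 10.5 and 18.03 in BS_1 and BS_2.

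Lists for microglia, endothelial cells, mural cells, ependymal cells and leptomeningeal fibroblasts overlapped between the regions in their sums. Microglia markers summed to between 2091 and 6506 in the HC and between 1891 and 3673 in the BS, with Tmem119 and P2ry12 at -1.51 and -1.39. Endothelial markers summed to 812 to 4269 against 2536 to 3650, with Cldn5 and Pecam1 at -0.44 and 0.04, and mural markers to 523 to 2887 against 962 to 1536, with Pdgfrb and Rgs5 at -0.68 and 0.67. Ependymal markers summed to 363 to 594 against 441 to 1405, where Foxj1 was at 1.51 and Ccdc153 was at 0 in all 3 BS samples. Fibroblast markers summed to 2159 to 4252 against 1857 to 9091, with Col1a1 at 0.96 and Col1a2 the call of its list (146, 93.2 and 55.8 against 644, 256 and 299, 1.99, SE 0.42, adjusted p = 0.0333), which was lost without HC_2, HC_3, BS_1 or BS_3 (adjusted p from 0.0865 to 0.144). The part of these cells in the differences between the regions was not tested.

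**Figure D5:**
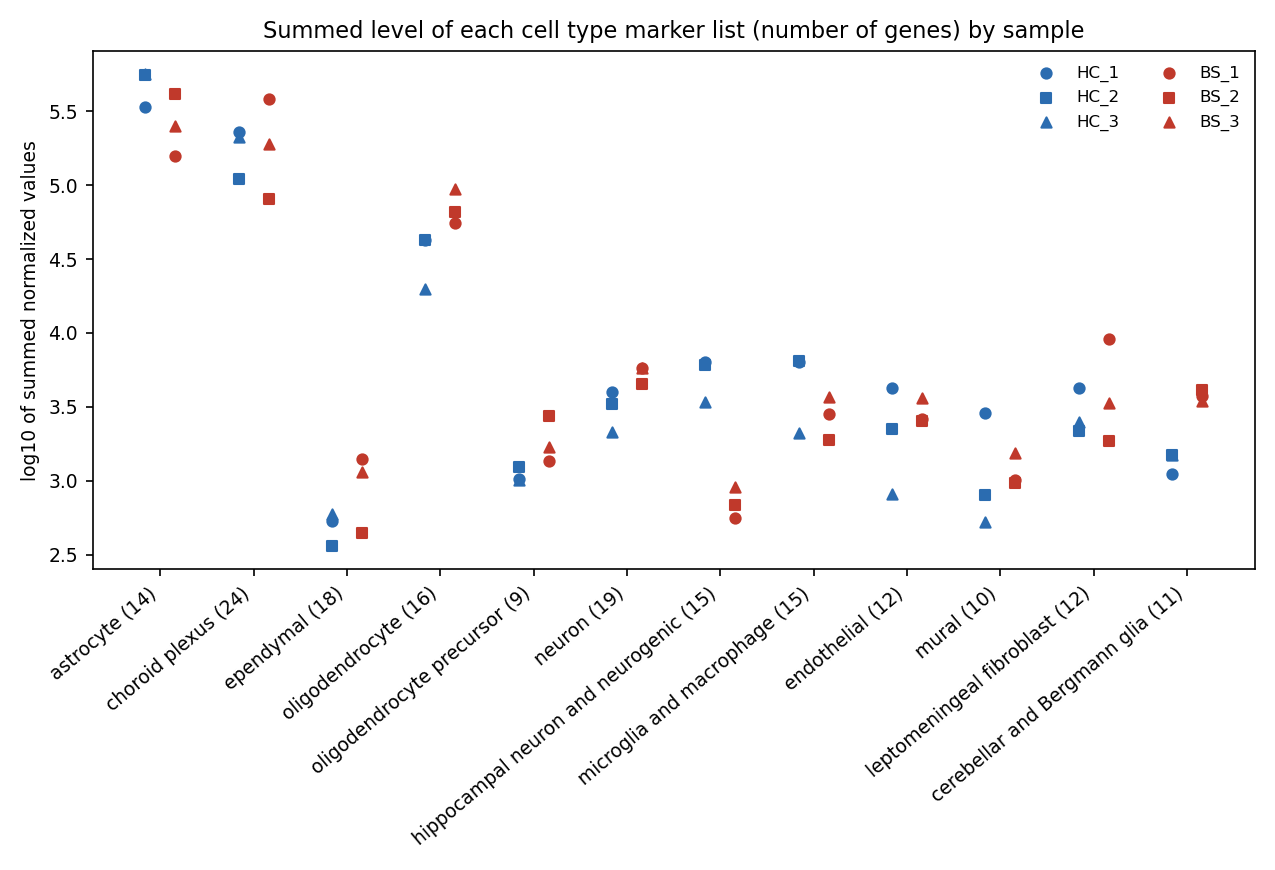
Sum of normalized values over each marker list in each of the 6 samples on a log10 axis, blue for the HC and red for the BS, with the number of genes in brackets. Choroid plexus sums overlap, from 81012 to 384892 over the 6 samples, whereas hippocampal neuron sums, mostly Camk2a in the HC, are higher in every HC sample. The oligodendrocyte sums, mostly Mbp, are higher in every BS sample.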

How the data were processed

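RNA of FAC-sorted Aldh1l1-eGFP cells was sequenced as paired-end reads after ribosomal RNA depletion. Per the submitters' processing notes and the study's methods, the authors checked reads with FastQC, aligned them with STAR 2.5.0a to mm10, took counts over UCSC transcripts and scaled these counts in DESeq2 1.20.0. The deposited unit is a normalized signal, each count divided by a single factor per sample, which the study calls RPM. In every sample 100% of the non-zero values of the 24421 entries were whole multiples of the value of 1 read within 0.01, so whole reads were recovered. Of the entries, 27 carry names that spreadsheet software had turned into dates and were kept as they stand.

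The 3 HC and 3 BS samples were grouped by their titles. Because the deposited signal is not counts, limma 3.58.1 (R 4.3.3) with a mean-variance trend was the main test, two-sided, on log2(value + 1), for the 12602 entries kept by filterByExpr of edgeR 4.0.16 on recovered reads. A further 11819 entries were left out, 6862 of them without a read in the 6 samples. Intervals and floors used 3 reads and 95% confidence and cover counting error only. Alternatives were edgeR, DESeq2 1.42.0, TMM scaling, added constants of 0.25 and 5, no filter or a mean of at least 20, all 4 regions in the fit, no trend, a replicate block and fits that dropped each sample in turn. The steps were tested on simulated data. There limma called 9 of 48 genes changed 2-fold, 36 of 50 changed 4-fold, 43 of 47 changed 8-fold and 48 of 49 changed 16-fold. It also called 6 unchanged genes. Most 2-fold changes were thus missed, and a gene not called here may still differ. Other steps used Python 3.11.15 (pandas 2.3.3, scipy 1.17.1, numpy 2.4.6), and plots matplotlib 3.10.9.

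The comparison, the gene lists and the genes always named were chosen with earlier results of these data known. Named genes were, in each direction, the 12 largest differences among called genes without overlap and with a mean of at least 20 in the higher region, the 8 with the highest mean value, up to 4 called members of each role list, the defining genes of each marker list, and a set always named, among them Aldh1l1, Sox9 and Ttr. Some genes of the lists are counted in the totals but are not reported here by name. Coordinates and promoters are those of RefSeq on GRCm38.p6.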

Additional observations from a re-analysis of the deposited data

How the results depend on the processing

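Of the 70 named genes that were called, all 70 kept their direction under the 16 alternative fits and 28 were called under each of them. The number called was 305 in the fit reported and 309 with edgeR, 637 with DESeq2 (347 higher in the HC and 290 in the BS), 643 with all 4 regions in the fit (373 and 270) and 132 without a trend (72 and 60), and the cause of these shifts was not tested. Of the 305 genes, edgeR shared 290, DESeq2 304, the fit of all 4 regions 299 and the fit without a trend 109. TMM scaling called 306, the constants 0.25 and 5 called 290 and 346, and no filter and a mean of at least 20 called 322 and 306. Without 1 sample, which leaves fewer samples, the count ran from 109 to 355, with 64 to 237 higher in the HC and 35 to 123 in the BS, and the genes shared with the 305 from 107 to 243. The thresholds of the study's methods gave 502 to 929 genes (238 to 551 and 213 to 378), and with all 4 regions in the fit 591 higher in the HC. With the replicate number as a block, 539 genes were called (293 higher in the HC and 246 in the BS), 302 of them among the 305. Deviations of same-numbered samples correlated at 0.140, 0.111 and -0.173, against -0.237 to 0.145 for the other pairs, and not every sample correlated best with its own number, so the numbers were not taken to pair the samples. With deviations from means of 3 samples, this check cannot decide whether same-numbered samples share an animal or a batch. Of the counts of list members called, 491 stayed within 1.5 times under an alternative and 87 moved further. Genes that were not called, with differences near 0, changed sign. Without 1 sample, Aldh1l1 ran from -0.22 to 0.29, Ttr from -0.53 to 0.60, Nfix from -0.17 to 0.10, Kl from -0.66 to 0.32, Pdgfra from -0.16 to 0.05205, Prox1 from -0.44 to 0.48, Cldn5 from -1.36 to 0.39, Pecam1 from -0.47 to 0.63 and Rgs5 from -0.13 to 1.46. TMM scaling took Ttr to -0.0139 and Prox1 to -0.0051, DESeq2 took Nfix to 0.0050 and Pecam1 to -0.19, and edgeR took Pecam1 to -0.21. Depth limits the genes of few reads, in the BS above all, where the floor of 3 reads reached 6.31, and 37 of the 39 Hox genes did not pass the filter.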

Other observations

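Some further called genes, chosen after their values were seen, are given here as values. Mgll, the lipase that degrades the endocannabinoid 2-AG, had 1001, 1065 and 1264 against 196, 345 and 244 in the BS (-2.11, SE 0.24, adjusted p = 0.00124), and Naaa, an amidase for related lipid amides, had 497, 659 and 801 against 109, 110.2 and 168 (-2.33, SE 0.26, adjusted p = 0.00124). The cannabinoid receptor Cnr1 had 167, 195 and 116 against 5.26, 22.04 and 48.4 (-3.03, SE 0.66, adjusted p = 0.0402), and was lost without any HC sample or BS_2 (adjusted p from 0.0528 to 0.209). Dab1, the adaptor of reelin signalling, had 949, 1553 and 1165 against 86.2, 120.2 and 118 (-3.47, SE 0.25, adjusted p = 8.45e-05), and the reelin receptor Lrp8 had 789, 1039 and 843 against 388, 435 and 354 (-1.18, SE 0.20, adjusted p = 0.012), a call that was lost without HC_2 or BS_3 (adjusted p = 0.0888 and 0.0763). Mfge8, which bridges phagocytes and dying cells, had 1382, 1570.1 and 2194 against 188, 292 and 286 (-2.74, SE 0.25, adjusted p = 3.14e-04), and Chst2, a sulfotransferase for carbohydrates, had 3562, 5884 and 5116 against 339, 587 and 627 (-3.25, SE 0.28, adjusted p = 2.61e-04). Mgll, Naaa, Dab1, Mfge8 and Chst2 were called in all 16 alternatives.

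Genes called higher in the BS were chosen likewise. Adra2a, an adrenergic receptor for noradrenaline, had 23.1, 34.7 and 37.1 in the HC and 152, 222 and 199.95 in the BS (2.57, SE 0.34, adjusted p = 0.00312), and Asic1, an acid-sensing ion channel, had 18.7, 38.4 and 27.5 against 322, 603 and 335 (3.84, SE 0.37, adjusted p = 4.02e-04). P2ry1, a receptor for ADP, had 19.99, 16.4 and 1.83 against 88.3, 367 and 183 (4.17, SE 0.78, adjusted p = 0.0196), and was lost without HC_2, BS_2 or BS_3 (adjusted p = 0.0576, 0.0558 and 0.0969). Gpd1, the cytosolic glycerol phosphate dehydrogenase, had 189, 235 and 215 against 1075, 1961 and 1313 (2.72, SE 0.24, adjusted p = 3.05e-04). The glycogen phosphorylase Pygm had 434, 488 and 501 against 881, 1519 and 1177 (1.30, SE 0.23, adjusted p = 0.0147) and the glycolytic regulator Pfkfb3 209.9, 261 and 184 against 459, 881 and 461 (1.40, SE 0.29, adjusted p = 0.0299). Both were lost without any HC sample or BS_3 (adjusted p from 0.0512 to 0.122). Adra2a, Asic1 and Gpd1 were called in all 16 alternatives. These genes were chosen from 175 called higher in the HC (1.39% of genes tested) and 130 in the BS (1.03%), and with neuron markers moving in both directions their cell of origin was not tested.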
